A study of Sus scrofa with 6 samples.

Results

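The mRNAs described here encode the subunits of respiratory complexes III and IV and of complex V, the ATP synthase, from both the nuclear and the mitochondrial genome. Members were the rows of the expression table whose pig Ensembl identifier carries 1 of 40 listed symbols, 34 nuclear and 6 mitochondrial. Of the 40, 30 had a row among the 20731 genes of the table: all 6 mitochondrial genes and 24 nuclear genes, of which 7 belong to complex III, 8 to complex IV and 9 to complex V. The other 10 (UQCRB, UQCRH, COX6B1, COX6C, ATP5F1B, ATP5F1E, ATP5PD, ATP5MC2, ATP5MF and ATP5MG) were not analysed here, so each nuclear set is incomplete and the catalytic beta subunit of ATP synthase is not among the values. Bulk libraries of total RNA were made from immature pig Sertoli cells, which support and feed the germ cells in the tubules of the testis. The 3 libraries named MT were from cells kept with melatonin at 10 nM for 36 h, and the 3 libraries named Control have no dose, solvent or time in their labels. No genotype, allele or animal age is given for either group. Nothing in the labels says that the replicates were separate cultures or animals. A p-value here therefore sets a group difference against the spread of these libraries within groups, and that spread may be only technical.

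Complex III takes electrons from ubiquinol and hands them to cytochrome c, and complex IV passes them from cytochrome c to oxygen. Both move protons across the inner mitochondrial membrane, and complex V lets the protons back through its membrane sector to make ATP. The catalytic or membrane core of each complex is partly encoded by mitochondrial DNA, which is copied into long RNAs that are later divided into single mRNAs, while the other subunits are made from nuclear genes and imported. Assembly therefore draws on mRNAs from both genomes, which are transcribed, processed and degraded by separate machinery.

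Between 19579279 and 21500665 reads lay behind each library. Control 3 stood apart from the other 5 libraries in these genes. Its value lay outside the range of the 3 MT libraries for 28 of the 30 members, above it for 15 and below it for 13, where the share over all genes tested was 81.7%. All 6 mitochondrial members were lower in Control 3 than in both other Control libraries, and the nuclear members split into 15 above both and 9 below both. Over all genes tested, Control 3 was above both for 45.3% and below both for 48.3%, so lying outside them was common to most genes. Every member is therefore plotted below with all 6 libraries and again without Control 3, an exclusion made knowing its values. In the text some genes are given for a single fit only, and the other fit may differ. Of 14 listed Sertoli markers 10 had a row, and GATA4, FSHR, CLDN11 and CST9L had none. Of these 10, SOX9, AMH, WT1, KRT18, INHBB and VIM had means of at least 1 FPKM, and DHH, INHA, DMRT1 and NR5A1 were below 0.1. Apart from VIM, which other somatic cells also express, these markers summed to 104 to 124 FPKM in Control and 110 to 117 in MT. Most of each sum was KRT18 alone, at 76.7 to 90.0 FPKM in Control and 82.8 to 85.9 in MT. For markers of other testis cells the sums were 3.85 to 4.35 FPKM in Control and 3.74 to 4.87 in MT (Leydig, 3 genes), 160 to 265 and 162 to 194 (peritubular myoid, 5 genes, nearly all TAGLN), 0.668 to 1.35 and 1.02 to 1.25 (germ, 2 genes), 0.162 to 0.309 and 0.152 to 0.322 (endothelial, 2 genes) and 3.18 to 4.19 and 4.55 to 5.35 (macrophage, 3 genes). CYP17A1 (Leydig), DDX4 (germ), CD163 and CSF1R (macrophage) were near 0, but other members of these lists were not. Their means over the 6 libraries were 2.32 FPKM for STAR and 1.95 for CYP11A1 (Leydig), 1.06 for UCHL1 (germ) and 4.27 for CD68 (macrophage). The mean of the Sertoli marker SOX9 was 1.91 FPKM. The part of any of these lists in the values below was not tested, and in bulk RNA fewer cells of a type and less RNA per cell cannot be told apart.

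The comparison of MT with Control asks how subunit mRNAs of the 2 genomes stand after melatonin. The mitochondrial mRNA for cytochrome b was 2.57 times as high in MT as in Control, with no overlap between the groups, and stood out from the other members in size. The mRNA for COX3 was 0.692 times as high with overlapping groups, the other 4 mitochondrial members also overlapped, and the 24 nuclear members had differences between -0.20 and 0.20 on the log2 scale. Of the 30 members, 0 passed the test over 6 libraries (limma on log2(FPKM + 1), two-sided, Benjamini-Hochberg threshold 0.05 over 10950 genes), where the share over all genes tested was also 0%. At an unadjusted p under 0.05 there was 1 member, CYTB, and 517 of all genes tested. Limma voom on the recovered reads likewise passed 0 members, with 2 under an unadjusted p of 0.05.

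Without Control 3, 1 member rose (CYTB) and 2 fell (COX3 and ATP8) in limma, all mitochondrial. In that fit 4.28% of all genes tested rose and 6.62% fell, so the share called among the 30 members is near the background. Limma voom on recovered reads without Control 3 called 5 members, CYTB, COX5B and COX8A as higher and COX3 and ATP8 as lower, where it called 21.6% of all genes. Over all 6 libraries the groups did not overlap for 2 of 30 members, CYTB and COX7C, against 11.2% of all genes tested.

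**Figure D1:**
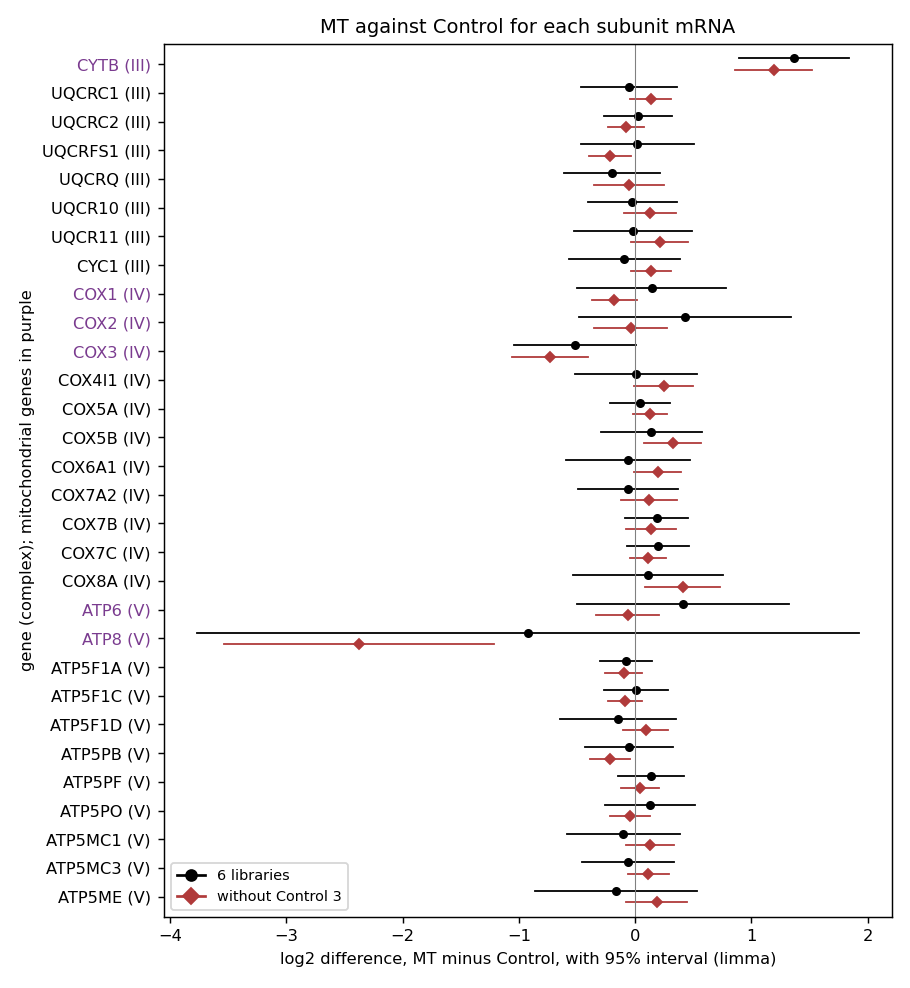
Log2 difference of MT minus Control for each of the 30 members (horizontal axis) with its 95% interval from limma, over 6 libraries (black circles) and without Control 3 (red diamonds), with mitochondrial genes in purple. CYTB lies at 1.37 and 1.19, COX3 moves from -0.51 to -0.73 and ATP8 from -0.92 to -2.37, while the nuclear members stay between -0.22 and 0.41 in both fits.

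In the plot of differences the mitochondrial members spread from -0.92 to 1.37 over 6 libraries, and the nuclear members from -0.20 to 0.20. Leaving out Control 3 narrowed the interval of every mitochondrial member and turned the sign of COX1, COX2 and ATP6. A member's interval shows how large a difference these libraries leave possible, and the widest among nuclear members had a half-width of 0.70, for ATP5ME.

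The 6 mitochondrial members lie on the mitochondrial chromosome of Sscrofa11.1, where each is a single coding stretch with no intron (RefSeq coordinates). CYTB (ENSSSCG00000018094) spans 15342 to 16481 and stands alone, 75 bases from its neighbour ND6. COX1 (ENSSSCG00000018075) spans 6511 to 8055, and COX2 (ENSSSCG00000018078) spans 8203 to 8890. ATP8 (ENSSSCG00000018080) spans 8959 to 9162 and overlaps the first 43 bases of ATP6 (ENSSSCG00000018081), which spans 9120 to 9800. The mRNA of these 2 genes is shared, with one reading frame starting inside the other. COX3 (ENSSSCG00000018082), at 9800 to 10583, shares 1 base with ATP6. How the authors' counting treated reads over an overlap, reads that also match copies of mitochondrial DNA in nuclear chromosomes, and strand is not given in the sources used here, so ATP8 and ATP6 are uncertain where their reads could be split.

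CYTB encodes cytochrome b, the membrane core of complex III that binds ubiquinol and carries the haem groups of its proton circuit. CYTB stood at 978, 904 and 651 FPKM in the Control libraries 1, 2 and 3 and at 2225, 2502 and 1781 FPKM in MT 1, 2 and 3. FPKM is the number of fragments scaled to library size and to the gene length used. Lengths recovered for nuclear members ran from 535 to 14834 bases. Those of COX6A1 (4860) and COX7C (3696) exceeded their RefSeq spans (2211 and 2274), and those of UQCR10, COX5B and COX7A2 were within theirs. An order or fold between different genes below is therefore one of FPKM and depends on these lengths. All 3 MT libraries were above all 3 Control libraries, and Control 3 was the lowest of the 6. The means were 844 ± 172 FPKM in Control and 2169 ± 364 in MT (SD, n = 3). The log2 difference was 1.37 (SE 0.20, 95% interval 0.90 to 1.84) with a Benjamini-Hochberg adjusted p of 0.245 in limma. Without Control 3 it was 1.19 (SE 0.14) and CYTB rose, with an adjusted p of 0.0167 in limma. The larger difference over 6 libraries thus did not pass while the smaller one without Control 3 did. Leaving out any library in turn kept the difference between 1.19 and 1.50.

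COX1, the subunit that holds the site where oxygen is reduced, had the highest level of all members. COX1 stood at 17810, 16021 and 8613 FPKM in the Control libraries 1, 2 and 3 and at 15116, 15245 and 14368 FPKM in MT 1, 2 and 3. The MT libraries lay close together, between Control 3 and the other Control libraries. Its log2 difference was 0.14 (SE 0.27, interval -0.50 to 0.78) over 6 libraries and -0.18 (SE 0.08) without Control 3. COX2 carries the copper centre that takes electrons from cytochrome c. COX2 stood at 4650, 4314 and 1692 FPKM in the Control libraries 1, 2 and 3 and at 4261, 5175 and 3756 FPKM in MT 1, 2 and 3. Apart from Control 3, the libraries of the 2 groups were mixed in order. For COX2 the log2 difference was 0.43 (SE 0.39) over 6 libraries and -0.04 (SE 0.13) without Control 3.

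COX3 is the third core subunit of complex IV and carries no metal. COX3 stood at 7271, 7216 and 4614 FPKM in the Control libraries 1, 2 and 3 and at 4199, 5263 and 3755 FPKM in MT 1, 2 and 3. Control 1 and Control 2 were above every MT library, and Control 3 lay between MT 1 and MT 2, so that the groups overlapped only through Control 3. The means were 6367 ± 1519 FPKM in Control and 4406 ± 775 in MT (SD, n = 3). The log2 difference was -0.51 (SE 0.22, interval -1.04 to 0.01) with an unadjusted p of 0.053 in limma. Without Control 3 COX3 fell by 0.73 on the log2 scale (SE 0.14), with an adjusted p of 0.0329 in limma.

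ATP6 is the membrane subunit through which protons reach the rotor of ATP synthase. ATP6 stood at 5346, 5068 and 1939 FPKM in the Control libraries 1, 2 and 3 and at 4752, 5782 and 4497 FPKM in MT 1, 2 and 3. As for COX2, the groups were mixed apart from the low value of Control 3. For ATP6 the log2 difference was 0.41 (SE 0.39) over 6 libraries and -0.06 (SE 0.12) without Control 3.

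ATP8 is a short membrane protein that sits beside ATP6 at the base of the peripheral stalk. ATP8 stood at 818, 719 and 36.5 FPKM in the Control libraries 1, 2 and 3 and at 100, 326 and 97.3 FPKM in MT 1, 2 and 3. These rest on 3269, 2939 and 156 reads in Control 1, 2 and 3 and 439, 1364 and 411 reads in MT 1, 2 and 3. Control 1 and Control 2 were high, MT 2 was intermediate, and Control 3 was below every MT library. The log2 difference was -0.92 with an interval of -3.77 to 1.93 over 6 libraries, which leaves the direction undetermined. Without Control 3 ATP8 fell by 2.37 (SE 0.49), with an adjusted p of 0.0366 in limma. At 204 bases ATP8 is the shortest member, so its value depends most on how short genes and the 43 overlapping bases were counted, which was not tested.

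**Figure D2:**
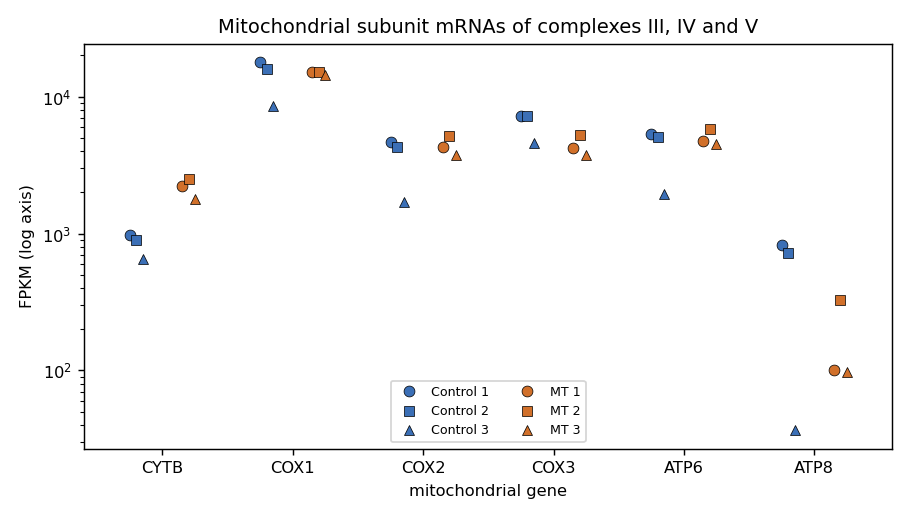
FPKM (vertical axis, log scale) of each of the 6 mitochondrial members in each library, with Control in blue and MT in orange and a symbol for each replicate number. The groups separate for CYTB, with MT above Control, and Control 3 is the lowest library for CYTB, COX1, COX2, ATP6 and ATP8.

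The plot of mitochondrial levels also shows their order. In each Control library COX1 was highest, followed by COX3, ATP6, COX2, CYTB and ATP8. In each MT library ATP6 was above COX3, and COX2 and COX3 lay too close to be ordered, 4261 and 4199 FPKM in MT 1, 5175 and 5263 in MT 2 and 3756 and 3755 in MT 3. COX1 stayed highest, and CYTB stayed above ATP8, in all 6 libraries.

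Ratios between 2 mitochondrial mRNAs within a library do not depend on the library total. The ratio of CYTB to COX1 was 0.0549, 0.0564 and 0.0756 in Control 1, 2 and 3 and 0.147, 0.164 and 0.124 in MT 1, 2 and 3. The lowest MT library was thus above the highest Control library, Control 3. The mean ratio in MT was 2.33 times that of Control, or 2.61 times that of Control 1 and Control 2. The ratio of COX3 to COX1 was 0.408, 0.450 and 0.536 in Control 1, 2 and 3 and 0.278, 0.345 and 0.261 in MT 1, 2 and 3. The MT mean was 0.634 times the Control mean, and Control 3 lay on the far side of the other Control libraries rather than towards MT.

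The ratio of COX3 to ATP6, its overlapping neighbour, was 1.36, 1.42 and 2.38 in Control 1, 2 and 3 and 0.884, 0.910 and 0.835 in MT 1, 2 and 3. Every Control library had more COX3 than ATP6 per unit length and every MT library had less. The ratio of ATP8 to ATP6, whose coding sequences share an mRNA, was 0.153, 0.142 and 0.0188 in Control 1, 2 and 3 and 0.0211, 0.0565 and 0.0216 in MT 1, 2 and 3. Here Control 3 was below every MT library, while Control 1 and Control 2 were above them all. The ratio of COX2 to COX1 overlapped between groups at 0.196 to 0.269 in Control and 0.261 to 0.339 in MT, as did that of ATP6 to COX1 at 0.225 to 0.316 and 0.313 to 0.379. These ratios are descriptions with no test, and a ratio of 2 mRNAs shows that they differed unequally, not which of them did. For ATP8 and ATP6, which share an mRNA, the ratio compares 2 stretches as they were counted. What set that ratio was not tested. With 3 libraries against 3, an exact permutation test cannot go below 0.10.

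**Figure D3:**
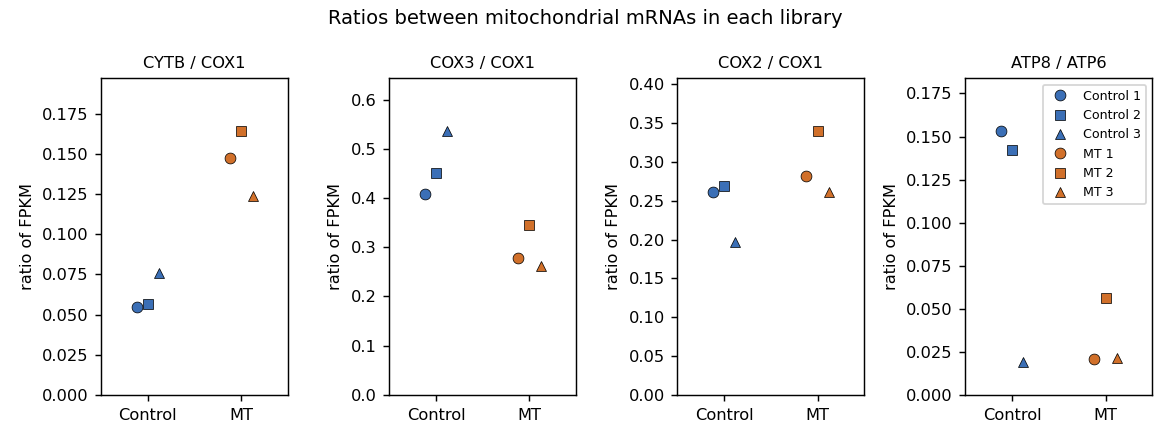
Ratio of FPKM (vertical axis, from 0) for 4 pairs of mitochondrial members in each library of Control (blue) and MT (orange). CYTB over COX1 is 0.0549 to 0.0756 in Control and 0.124 to 0.164 in MT, COX3 over COX1 is higher in all Control libraries, and ATP8 over ATP6 is as low in Control 3 as in MT 1 and MT 3.

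The nuclear members of complex III had a median log2 difference of -0.02, with 2 of 7 higher and 5 lower in MT, and none passed. CYC1, cytochrome c1, which delivers electrons to cytochrome c, had the highest mean level of the 7. CYC1 stood at 155, 161 and 255 FPKM in the Control libraries 1, 2 and 3 and at 183, 162 and 177 FPKM in MT 1, 2 and 3. Control 3 was far above the rest, and the MT libraries were just above Control 1 and Control 2. Its log2 difference was -0.09 (SE 0.20) over 6 libraries and 0.14 (SE 0.07) without Control 3. UQCRC1, a core protein on the matrix side, had the same order of libraries. UQCRC1 stood at 116, 120 and 174 FPKM in the Control libraries 1, 2 and 3 and at 138, 121 and 129 FPKM in MT 1, 2 and 3. The difference was -0.05 (SE 0.17) on the log2 scale, or 0.13 (SE 0.08) without Control 3.

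UQCRQ, a small subunit that lies against cytochrome b, had the lowest log2 difference of all nuclear members, -0.20 (SE 0.17). UQCRQ stood at 144, 123 and 180 FPKM in the Control libraries 1, 2 and 3 and at 142, 109 and 137 FPKM in MT 1, 2 and 3. The groups were mixed, with MT 2 lowest and Control 3 highest. UQCRFS1, the iron-sulfur protein that takes the first electron from ubiquinol, was 0.602 times as high in Control 3 as in the mean of the other Control libraries. Its log2 difference was 0.02 (SE 0.21) over 6 libraries and -0.22 (SE 0.08) without Control 3, with an adjusted p of 0.0978 in limma. The remaining members, the core protein UQCRC2 and the small subunits UQCR10 (chromosome 14, 46783340 to 46786140) and UQCR11, had log2 differences of 0.03, -0.02 and -0.02. Without Control 3 these were -0.08, 0.13 and 0.21. None of the 7 nuclear members of complex III thus had a difference near that of CYTB, their mitochondrial partner, in either fit.

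The nuclear members of complex IV had a median log2 difference of 0.07, with 6 of 8 higher and 2 lower, and none passed. Without Control 3 all 8 were higher in MT, by 0.11 to 0.41 and with a median of 0.17, where 49.4% of all genes tested were higher. COX8A, the smallest subunit, in the isoform most tissues use, had the highest mean level of the 8. COX8A stood at 138, 137 and 259 FPKM in the Control libraries 1, 2 and 3 and at 201, 150 and 205 FPKM in MT 1, 2 and 3. All MT libraries lay between Control 3 and the other Control libraries. Its log2 difference was 0.11 (SE 0.27) over 6 libraries, and 0.41 (SE 0.14) without Control 3 with an adjusted p of 0.0835 in limma. COX5B (ENSSSCG00000008195, chromosome 3, 56630297 to 56632107), which binds zinc on the matrix side, also had all MT libraries between Control 3 and the other Control libraries. COX5B stood at 71.6, 76.0 and 108 FPKM in the Control libraries 1, 2 and 3 and at 103, 81.2 and 94.4 FPKM in MT 1, 2 and 3. COX5B differed by 0.14 (SE 0.18) on the log2 scale, and by 0.32 (SE 0.10) without Control 3 with an adjusted p of 0.0785 in limma. No nuclear member had a smaller one.

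COX7C (ENSSSCG00000040325, chromosome 2, 94345436 to 94347709), a small subunit with 1 span through the membrane, was the only nuclear member whose groups did not overlap. COX7C stood at 26.7, 25.8 and 21.8 FPKM in the Control libraries 1, 2 and 3 and at 29.2, 28.1 and 28.0 FPKM in MT 1, 2 and 3. The gap between the lowest MT library and the highest Control library was small, and the log2 difference was 0.20 (SE 0.11, unadjusted p 0.129 in limma). COX7B, another small subunit of the membrane part, had a difference of 0.18 (SE 0.11). COX7B stood at 33.0, 32.7 and 29.7 FPKM in the Control libraries 1, 2 and 3 and at 39.5, 32.5 and 37.1 FPKM in MT 1, 2 and 3. Only MT 2 lay among the Control libraries. These 2 genes were the nuclear members of complex IV in which Control 3 was the lowest library, and in the other 6 it was the highest.

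COX4I1, whose protein binds ATP and adjusts the activity of the enzyme, had a log2 difference of 0.00 (SE 0.22) over 6 libraries and 0.25 (SE 0.11) without Control 3. COX5A, its neighbour on the matrix side, had 0.04 and 0.12. COX6A1 (chromosome 14, 40408600 to 40410810) and COX7A2 (chromosome 1, 90696746 to 90703407), the forms used outside heart and skeletal muscle, both had -0.06 over 6 libraries. Without Control 3 they had 0.20 and 0.12. None of these 4 passed in either fit.

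The nuclear members of complex V had a median log2 difference of -0.06, with 3 of 9 higher and 6 lower, and none passed. ATP5F1D, the delta subunit of the central stalk, had the highest mean level of all nuclear members. ATP5F1D stood at 179, 179 and 295 FPKM in the Control libraries 1, 2 and 3 and at 205, 174 and 193 FPKM in MT 1, 2 and 3. Control 3 alone was far from the others, and the log2 difference was -0.15 (SE 0.21) with it and 0.09 (SE 0.08) without it. ATP5F1A, the alpha subunit of the catalytic head, was the steadiest member across libraries. ATP5F1A stood at 49.9, 49.3 and 47.6 FPKM in the Control libraries 1, 2 and 3 and at 46.5, 44.0 and 48.3 FPKM in MT 1, 2 and 3. It was, with COX3, 1 of the 2 members for which Control 3 lay within the MT range, and its log2 difference was -0.08 (SE 0.09), with an interval of -0.31 to 0.14.

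The peripheral stalk holds the catalytic head still while the rotor turns, and its 3 measured nuclear subunits were all lowest in Control 3. ATP5PO, which joins the stalk to the head, stood at 184, 170 and 123 FPKM in the Control libraries 1, 2 and 3 and at 179, 162 and 173 FPKM in MT 1, 2 and 3. ATP5PF, a coupling factor of the stalk, stood at 19.9, 21.1 and 16.7 FPKM in the Control libraries 1, 2 and 3 and at 21.0, 20.5 and 21.9 FPKM in MT 1, 2 and 3. In both genes Control 3 was the lowest library and the other 5 were mixed in order. Their log2 differences were 0.13 (SE 0.16) and 0.13 (SE 0.12) over 6 libraries, and -0.05 and 0.04 without Control 3. ATP5PB, the long membrane-bound subunit of the stalk, had -0.05 (SE 0.16), and -0.22 (SE 0.07) without Control 3 with an adjusted p of 0.0859 in limma.

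ATP5F1C, the gamma subunit that turns inside the head, had a log2 difference of 0.01 (SE 0.12) over 6 libraries and -0.09 without Control 3. ATP5MC1 and ATP5MC3 encode the same mature protein of the rotor ring, and their differences were -0.10 and -0.06, or 0.13 and 0.11 without Control 3. ATP5ME, a membrane subunit of the dimer contact, had the largest deviation of Control 3 among nuclear members, 2.18 times the mean of the other Control libraries. Its difference was -0.17 (SE 0.29), or 0.18 (SE 0.11) without Control 3. Several of these genes, like others of complexes IV and V, have processed copies elsewhere in mammalian genomes, and how shared reads were counted is not given in the sources used here.

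**Figure D4:**
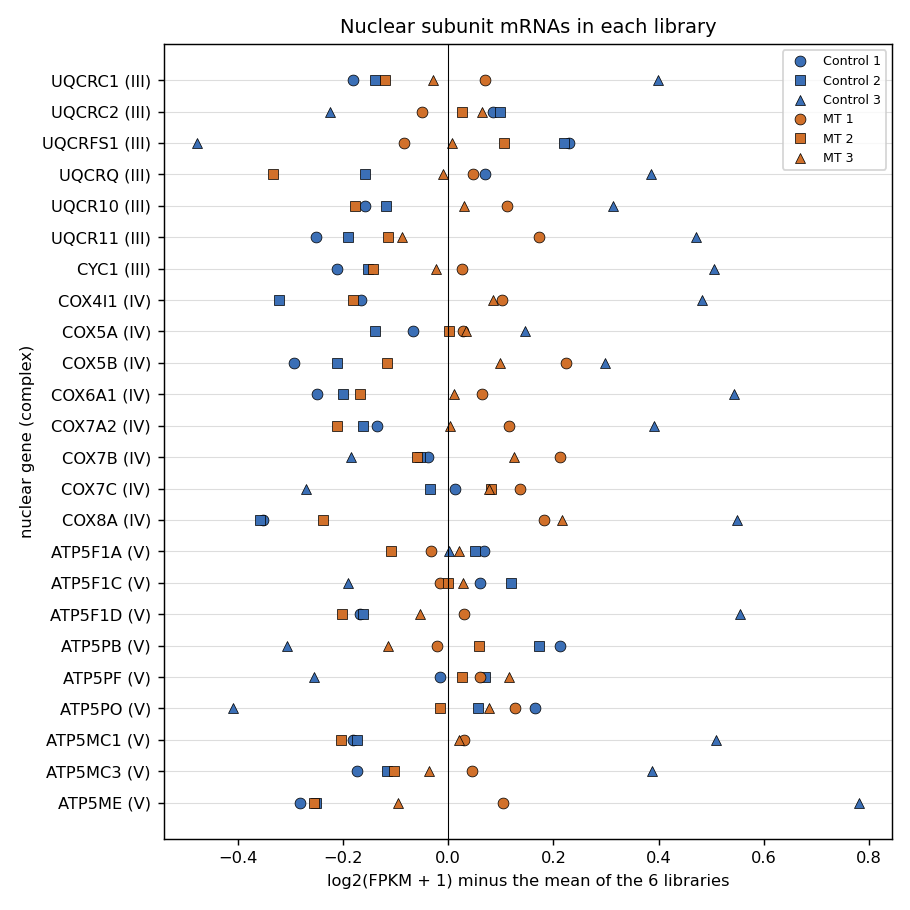
Each of the 24 nuclear members in each library, as log2(FPKM + 1) minus the mean of the 6 libraries (horizontal axis), with Control in blue, MT in orange and triangles for replicate 3. Control 3 (blue triangles) lies on the far right for 15 genes and on the left for 8, and ATP5F1A is the one gene where it lies inside the MT range.

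Over all 24 nuclear members, 11 were higher and 13 lower in MT with a median log2 difference of -0.02, where 56% of all genes tested were higher and their median was 0.02. Without Control 3, 17 were higher and 7 lower, with a median of 0.12 against 0.00 over all genes tested. In both fits 0 of the 24 passed in limma, and over 6 libraries 0 had an unadjusted p under 0.05. The direction of a nuclear member's difference therefore often turned with Control 3, as the plot of nuclear members shows. Every nuclear member above both other Control libraries in Control 3 was also above all 3 MT libraries there. Such members were UQCRC1, UQCRQ, UQCR10, UQCR11, CYC1, COX4I1, COX5A, COX5B, COX6A1, COX7A2, COX8A, ATP5F1D, ATP5MC1, ATP5MC3 and ATP5ME. The deviation of Control 3 from the other Control libraries had a Spearman correlation of -0.27 with gene length across the 24 genes, which is a description within shared libraries. Within a complex some subunits were thus above and others below both other Control libraries in Control 3, 5 and 2 in complex III, 6 and 2 in complex IV, and 4 and 5 in complex V.

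Nuclear and mitochondrial subunits were then set against each other within each complex and library. The measure was the mean log2(FPKM + 1) of the nuclear members minus that of the mitochondrial members. In complex III it was -4.09, -3.98 and -3.25 in Control 1, 2 and 3 and -5.17, -5.49 and -4.90 in MT 1, 2 and 3. Every MT library was below every Control library, so the surplus of CYTB over its nuclear partners was larger in MT, by 1.42 on the log2 scale or by 1.15 without Control 3. As a fold, CYTB stood 9.50 to 17.0 times above its nuclear partners in Control and 29.9 to 45.0 times above them in MT. The size of such a fold depends on the gene lengths used, which are the same in every library.

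In complex IV the measure was -7.24, -7.17 and -5.78 in Control 1, 2 and 3 and -6.56, -7.01 and -6.47 in MT 1, 2 and 3. The MT libraries lay between Control 3 and the other Control libraries, and the change was 0.05, or 0.53 without Control 3. Taken singly, the nuclear mean minus COX3 changed by 0.58 (0.94 without Control 3), minus COX1 by -0.07 (0.39) and minus COX2 by -0.36 (0.25). In complex V the measure was -5.35, -5.21 and -2.24 in Control 1, 2 and 3 and -3.69, -4.80 and -3.67 in MT 1, 2 and 3. Control 3 was again at one end, Control 1 and Control 2 at the other, and the change was 0.22, or 1.23 without Control 3. Most of the latter came from ATP8, since the nuclear mean minus ATP8 changed by 2.39 without Control 3 and minus ATP6 by 0.08. Only in complex III did the groups separate over 6 libraries, and complex IV and V changed in sign or size with the library left out. No p is given for these means over chosen genes.

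**Figure D5:**
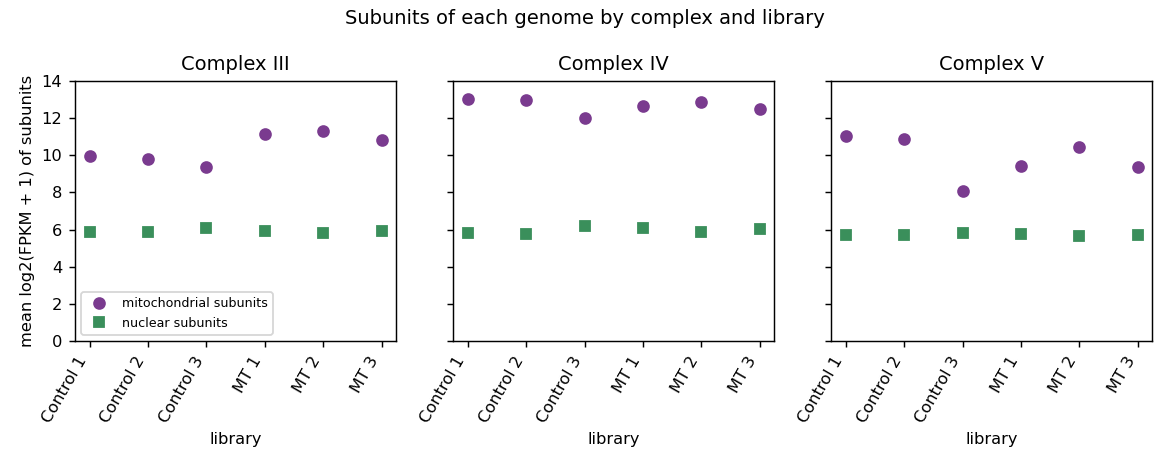
Mean log2(FPKM + 1) of the mitochondrial (purple circles) and nuclear (green squares) members of each complex (vertical axis, from 0) in each of the 6 libraries (horizontal axis). The nuclear means stay between 5.63 and 6.21 in all complexes and libraries, while the mitochondrial mean of complex III is higher in all MT libraries and that of complex V drops to 8.07 in Control 3.

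In the plot by complex the nuclear means hardly move beside the mitochondrial ones. The 6 mitochondrial members together took 4.13%, 3.80% and 2.02% of reads in Control 1, 2 and 3 and 3.54%, 3.81% and 3.28% in MT 1, 2 and 3. The 24 nuclear members took 0.339%, 0.339% and 0.401% in Control 1, 2 and 3 and 0.360%, 0.328% and 0.354% in MT 1, 2 and 3. Apart from Control 3, both shares overlapped between groups.

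Other genes of the same complexes and of their assembly were described from lists, and 0 genes of any list passed over 6 libraries in limma. Of 6 tested other subunits and isoforms, 4 were higher and 2 lower, with a median log2 difference of 0.10. For ATP5MK, a small subunit of the ATP synthase dimer, the Control mean was 86.6 ± 11.2 FPKM and the MT mean 97.3 ± 10.2 (SD, n = 3). For ATP5IF1, which blocks the reverse reaction of ATP synthase, they were 19.7 ± 9.92 and 24.8 ± 4.02. ATP5IF1 stood at 28.0, 22.4 and 8.72 FPKM in Control 1, 2 and 3. Its log2 difference was 0.45 (SE 0.39) over 6 libraries and -0.02 (SE 0.14) without Control 3. Without Control 3 only CYCS, cytochrome c itself, passed, falling by 0.40 (adjusted p 0.0370 in limma), a gene named after its value was seen. Its values were 36.5, 38.0 and 23.9 FPKM in Control 1, 2 and 3 and 27.4, 30.6 and 26.1 FPKM in MT 1, 2 and 3, again with Control 3 lowest.

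Assembly factors build the complexes and are not part of them. For complex III, 1 of 4 tested was higher and 3 lower, with a median of -0.03. BCS1L, which inserts the iron-sulfur protein, had a log2 difference of -0.16, and UQCC2, needed for cytochrome b to be made and assembled, had -0.05. The means of UQCC2 were 12.3 ± 3.18 FPKM for Control and 11.7 ± 0.555 for MT (SD, n = 3). For complex IV, 5 of 15 were higher and 10 lower, with a median of -0.02, and COA4 and COA7 had differences of -0.39 and -0.19. HIGD1A, named after its value was seen, fell by 0.35 without Control 3 (adjusted p 0.0466 in limma). Over 6 libraries the difference of HIGD1A had the other sign, 0.20 (SE 0.43). Control 3 (20.2 FPKM) was below every MT library (46.0 to 54.2 FPKM) for this gene. For complex V, 2 of 4 were higher and 2 lower, and ATPAF2 and ATPAF1, chaperones of the catalytic head, had 0.18 and -0.09.

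Genes for the copying, transcription and RNA turnover of the mitochondrial genome were lower in MT for 15 of 18 tested and higher for 3, with a median log2 difference of -0.07 against 0.02 over all genes. Without Control 3 the median was -0.20, with 14 lower and 4 higher. TWNK, the helicase that unwinds mitochondrial DNA, stood at 5.35, 5.94 and 6.52 FPKM in the Control libraries 1, 2 and 3 and at 5.16, 5.34 and 5.32 FPKM in MT 1, 2 and 3. The groups just failed to overlap, and the difference was -0.14 (SE 0.11). PNPT1, a mitochondrial enzyme that degrades RNA, stood at 14.6, 15.0 and 7.88 FPKM in the Control libraries 1, 2 and 3 and at 9.13, 10.2 and 10.3 FPKM in MT 1, 2 and 3. Without Control 3 it fell by 0.54 (adjusted p 0.0242 in limma), as did TFAM, which packages mitochondrial DNA and starts its transcription, by 0.65 (adjusted p 0.042), a gene named after its value was seen. In both genes Control 3 was lower than every MT library.

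Among 9 tested regulators of nuclear respiratory genes, 3 were higher and 6 lower, with a median of -0.02. MYC, a growth regulator, stood at 58.5, 74.5 and 77.6 FPKM in the Control libraries 1, 2 and 3 and at 49.9, 54.4 and 49.8 FPKM in MT 1, 2 and 3. All MT libraries were below all Control libraries, and the log2 difference was -0.43 (SE 0.13, adjusted p 0.822 in limma). ESRRA, a nuclear receptor that activates genes of oxidative metabolism, had means of 2.69 ± 0.724 FPKM for Control and 3.06 ± 0.179 for MT (SD, n = 3), a log2 difference of 0.15. GABPA, the DNA-binding part of a factor at many respiratory promoters, was named after its value was seen and fell by 0.44 without Control 3 (adjusted p 0.0435 in limma). Over 6 libraries its difference was -0.15 (SE 0.25). For GABPA too, Control 3 (2.08 FPKM) was below every MT library (2.91 to 3.61 FPKM).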

How the data were processed

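Total RNA of 6 libraries was sequenced, 3 Control and 3 MT by their titles. The deposited table gives FPKM for each library, which the authors computed per gene. Tools named in the submitters' processing notes are HISAT2, Subread, featureCounts and bcl2fastq, and the build named there is Sscrofa11.1. Not given in the sources used here are tool versions, the annotation release, strand, the treatment of shared or overlapping reads and any filter. FPKM is tied to each library's total, so abundant transcripts move all others.

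Of 20731 genes, 13173 (63.5%) matched a symbol. Mitochondrial and some nuclear positions came from RefSeq (Sscrofa11.1) by symbol. Library totals were recovered from the steps of low values. Each gene's length was then the smallest that gave whole reads within 0.01 in every library. All genes (100%) had such a length, which by this rule is no check of the length itself. The totals were 19579279, 20028205 and 20961380 reads in Control 1, 2 and 3 and 21500665, 20484755 and 20711347 in MT 1, 2 and 3. Recovered lengths of the mitochondrial mRNAs equalled the RefSeq lengths.

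A mean of 1 FPKM over the libraries was required, which 10950 genes reached. They were tested for MT against Control with limma (version 3.58.1, R 4.3.3) after adding 1 and taking log2, two-sided, with a variance trend, no term besides group and a Benjamini-Hochberg threshold of 0.05. The fit was checked on simulated data in which no library stood apart. The check therefore does not cover a library such as Control 3. Intervals are 95%. This scale understates changes of low genes. Tables and plots used Python 3.11.15, numpy 2.4.6, pandas 2.3.3 and matplotlib 3.10.9. The members and lists were chosen with earlier results of these data known, so no p is given over them alone. Every member was named. Values in every library were given for the mitochondrial members and, in each complex, for the 3 nuclear members with the smallest p and the one with the highest mean, and each other list gave its 2 genes with the smallest p. Alternatives varied the pseudocount, the filter, the scaling and the variance model, added a replicate block or left out each library. Alternatives chosen once the data had been seen used recovered reads with limma voom, with and without Control 3, and scaling outside the mitochondrial genome without Control 3.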

Additional observations from a re-analysis of the deposited data

How the results depend on the processing

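Leaving out each library in turn gave 0 to 1194 genes and 0 to 3 members past the threshold, all of them without Control 3. Limma voom without Control 3 gave 2367 genes and 5 members. The median log2 difference of the nuclear members was -0.082 to 0.12 with a library left out, and 0.095 when libraries were rescaled outside the mitochondrial genome without Control 3. That of the mitochondrial members was -0.12 to 0.51. The nuclear minus mitochondrial change was -1.58 to -1.15 in complex III, -0.20 to 0.53 in complex IV and -0.32 to 1.23 in complex V. The sign of 21 members turned with a library left out, 17 of them without Control 3, and 0 of these 21 passed in any limma fit on log2(FPKM + 1). Their ranges were -0.16 to 0.13 (UQCRC1), -0.078 to 0.083 (UQCRC2), -0.22 to 0.14 (UQCRFS1), -0.11 to 0.13 (UQCR10), -0.15 to 0.21 (UQCR11), -0.22 to 0.14 (CYC1), -0.18 to 0.34 (COX1), -0.039 to 0.69 (COX2), -0.16 to 0.25 (COX4I1), -0.018 to 0.12 (COX5A), -0.20 to 0.20 (COX6A1), -0.16 to 0.12 (COX7A2), -0.045 to 0.41 (COX8A), -0.064 to 0.67 (ATP6), -0.086 to 0.069 (ATP5F1C), -0.27 to 0.089 (ATP5F1D), -0.22 to 0.041 (ATP5PB), -0.047 to 0.24 (ATP5PO), -0.22 to 0.13 (ATP5MC1), -0.17 to 0.11 (ATP5MC3) and -0.35 to 0.18 (ATP5ME). Under quantile normalization UQCR10 (0.0046) and UQCR11 (0.0022) also turned. The cause was not tested. Other pseudocounts, filters and variance models turned no member and called 0.

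The replicate numbers are not said to pair the libraries, and the deviations of same-numbered libraries had correlations of -0.44, 0.63 and 0.34, so no pairing was assumed. With the replicate block 0 genes and 0 members passed in limma, 499 genes had an unadjusted p under 0.05, and the nuclear and mitochondrial medians (-0.02 and 0.28) and the changes in complex III (-1.42), IV (0.05) and V (0.22) were those without it.

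The interval of ATP8 is the widest of the members, with 156 reads in its lowest library, and differences of nuclear members smaller than their intervals were not detectable with 3 libraries a group.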

Other observations

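The 7 mitochondrial mRNAs of complex I, the NADH dehydrogenase, come from the same chromosome as the 6 mitochondrial members. Their median log2 difference was 0.09, with 5 higher and 2 lower in MT, and 0 passed in limma over 6 libraries (1 with an unadjusted p under 0.05). ND1 stood at 1764, 1657 and 1362 FPKM in the Control libraries 1, 2 and 3 and at 1971, 2108 and 1805 FPKM in MT 1, 2 and 3. ND4L stood at 1160, 1165 and 690 FPKM in the Control libraries 1, 2 and 3 and at 1500, 1436 and 1331 FPKM in MT 1, 2 and 3. In both the groups did not overlap, with MT higher, by 0.30 (SE 0.13) and 0.54 (SE 0.22) on the log2 scale. ND4, named after its value was seen, also did not overlap, at 976 to 1664 FPKM in Control and 1840 to 2017 in MT. Its log2 difference was 0.48 (SE 0.22). The groups thus did not overlap for 3 of the 7, against 11.2% of all genes tested. Of these 3, ND4L and ND4 share 7 bases on the chromosome, so they may not be separate observations. The ratio of CYTB to ND1 was 0.555, 0.545 and 0.478 in Control 1, 2 and 3 and 1.13, 1.19 and 0.987 in MT 1, 2 and 3, again without overlap. CYTB was thus higher in MT relative to ND1 as well as to COX1.

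ND5 and ND6, named after their values were seen, lie beside CYTB on the chromosome, overlap by 17 bases and are read from opposite strands. They fell by 0.61 and 1.06 on the log2 scale without Control 3 (adjusted p 0.0251 and 0.0277 in limma), while CYTB rose in that fit. ND6 stood at 2707, 2834 and 434 FPKM in the Control libraries 1, 2 and 3 and at 1180, 1743 and 1133 FPKM in MT 1, 2 and 3, so Control 3 was below every MT library. Reads within the 17 shared bases cannot be assigned to 1 gene without strand, which is not given in the sources used here. If strand was ignored, reads of either strand over the rest of ND5 or ND6 were counted for that gene. Together the 13 mitochondrial mRNAs took 5.56%, 5.27% and 2.72% of reads in Control 1, 2 and 3 and 4.68%, 5.10% and 4.35% in MT 1, 2 and 3.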
